A study of Mus musculus with 37 samples.

Results

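Clec3b-type fibroblasts are described here from the injured mouse heart at 7 days after myocardial infarction. They were chosen by measured values, as single cells that carried fibroblast matrix transcripts and more counts of one group of genes than of another. A cell was a member if Col1a1, Col1a2, Col3a1 and Dcn together made up at least 0.5% of its counts, C1qa, C1qb and C1qc together made up less than 0.3%, and Ifit1, Ifit3, Isg15, Rsad2 and Iigp1 together had fewer than 5 counts. It also had to hold more counts of Clec3b, Dpep1, Htra3, Fbln1, Adamtsl2, Tnxb and C3 together than of Thbs4, Comp, Cilp, Col11a1, Fmod and C1qtnf3 together. The first of these groups is called the Clec3b group and the second the scar group. The rule found 2544 members among 12807 cells of 2 libraries, 1742 of 7460 in ENPP1CKO and 802 of 5347 in the control. Cells that leaned to the scar group under the same limits, 1694 in ENPP1CKO and 948 in the control, are called scar matrix fibroblasts. Macrophages, used for comparison, are the cells with C1q at or over that limit and collagen under its own.

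Both libraries held the non-myocyte cells of injured C57BL/6 hearts, with 1 library per genotype. ENPP1CKO animals carried the Col1a2CreERT driver, a tamoxifen-inducible Cre active in cells that transcribe Col1a2, together with 2 floxed Enpp1 alleles, and tamoxifen ran from 5 days before injury until 7 days after it. The control library was labelled wild type. The age of the animals, the number of hearts in each library, and whether the control animals carried a Cre or floxed allele or received tamoxifen were not given in the sources used here. The comparison of genotypes asks what loss of Enpp1, an ectonucleotidase that hydrolyses extracellular ATP, goes with in the fibroblasts of the healing infarct.

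Fibroblasts are the matrix-producing cells of the heart. After infarction some of them become contractile, alpha-smooth muscle actin-positive myofibroblasts and later matrifibrocytes, whose transcripts include Comp, Cilp, Thbs4 and other tendon- and cartilage-type matrix genes. Other fibroblasts stay nearer to the resting state of the interstitium and adventitia, the outer sheath of vessels, and are known for Pi16, Cd34, Ly6a, Clec3b and complement genes. Clec3b encodes tetranectin, a plasminogen-binding C-type lectin, Dpep1 a membrane dipeptidase, Htra3 a secreted serine protease and Fbln1 the matrix glycoprotein fibulin-1. Tnxb encodes tenascin-X, Adamtsl2 a matrix protein that binds microfibrils, and C3 the central complement component.

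Members had a median of 3604.5 counts (unique transcripts) per cell in ENPP1CKO and 4558 in the control, and medians of 1503 and 1767 detected genes. Scar matrix fibroblasts were deeper, with medians of 4620.5 and 5774 counts. The members' summed profiles rested on 6841360 counts in ENPP1CKO and 4161367 in the control. Scrublet called 24 of the 1742 and 6 of the 802 members as doublets, which were kept. The libraries shared 68 cell barcodes, 4 of them among members of both. With 1 library per genotype no test between genotypes was possible. Levels are counts per 1000000 (CPM) of the summed counts of a class, ratios are log2 of CPM in ENPP1CKO over CPM in the control unless a different ratio is named, and every 95% interval covers counting error only. Differences between animals, dissections or library preparations cannot be told apart from genotype.

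The members were not all of one kind. In the control library, 86 of 802 members (10.7%, exact Clopper-Pearson 95% interval 8.67 to 13.1) had 20 or more counts of Saa3, an acute phase serum amyloid, and Clu, the secreted chaperone clusterin, together, against 11 of 1742 (0.631%, 0.316 to 1.13) in ENPP1CKO. Among scar matrix fibroblasts the same threshold found 3 of 948 control cells and 0 of 1694 ENPP1CKO cells, where a count of 0 allows up to 3 counts of 1694, a share of 0.177%. These Saa3- and Clu-high members were poor in collagen. Col1a1, Col1a2, Col3a1 and Dcn made up a median of 1.58% of their counts in the control and 1.33% in ENPP1CKO, against 2.87% and 3.35% in the other members. They were also deep, with medians of 8383.5 and 7108 counts.

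**Figure D1:**
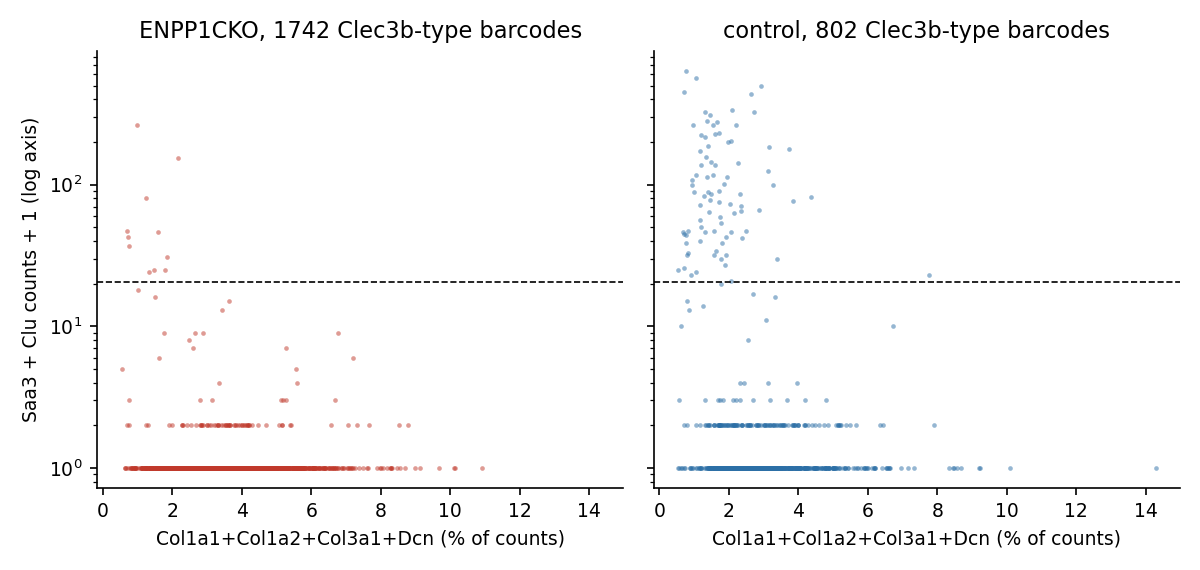
Each point is a Clec3b-type cell, plotted by the share of its counts in Col1a1, Col1a2, Col3a1 and Dcn (%, horizontal axis) and its Saa3 plus Clu counts plus 1 (vertical axis, log scale), with ENPP1CKO on the left and the control on the right. Above the dashed line at 20 counts lie 11 of 1742 ENPP1CKO members and 86 of 802 control members, most of them at collagen shares under 2%.

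Most markers of these cells went against the label Clec3b-type fibroblast. Clec3b stood at 45.0 CPM in the control Saa3- and Clu-high cells and 361 CPM in the other control members. C3, another gene of the Clec3b group, was higher in them, at 697 against 342 CPM, as was Pdgfra, the PDGF receptor of cardiac fibroblasts, at 181 against 114 CPM, whereas in ENPP1CKO Pdgfra was lower in them, at 24.8 CPM (2 counts) against 144 CPM. A list of 9 epicardial and mesothelial markers, genes of the sheet of cells that covers the heart (Msln, Upk3b, Upk1b, Wt1, Krt8, Krt18, Krt19, Muc16 and Lrrn4), summed to 2 or more counts in 65 of the 86 control cells and in 8 of the 11 ENPP1CKO cells. At least 1 such count was found in 75 of the 86 and in 10 of the 11. The same threshold found 19 of the 716 other control members and 25 of the 1731 other ENPP1CKO members, which were shallower. Wt1, a transcription factor of the epicardium, stood at 274 CPM in the control Saa3- and Clu-high cells and 6.59 CPM in the other control members. Postn, the matricellular protein periostin, stood at 163 and 3408 CPM, Ccn5 at 42.6 and 1643 CPM, and the collagen gene Col8a1 at 54.8 and 1623 CPM. The keratin and uroplakin side of the marker list was much lower in the control set than in the 11 ENPP1CKO cells, with Msln at 8.52 against 993 CPM, Upk3b at 64.5 against 707 CPM and Krt19 at 85.2 against 546 CPM. These 97 cells are called Saa3- and Clu-high below, and the main genotype results are given with them and without them. The threshold of 20 counts was set after these values were seen.

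By share of cells, Clec3b-type fibroblasts made up more of the fibroblasts in ENPP1CKO. They were 1742 of 3852 fibroblasts (45.2%, exact binomial 95% interval 43.6 to 46.8) in ENPP1CKO and 802 of 2053 (39.1%, 36.9 to 41.2) in the control, where fibroblasts are all cells that met the collagen and C1q limits. Scar matrix fibroblasts were 44.0% and 46.2% of them, interferon-responding cells 6.20% and 10.1%, and cells with equal counts of both groups 4.60% and 4.63%. The intervals of the Clec3b-type share did not overlap, but each comes from a single library. Without the Saa3- and Clu-high cells the shares were 45.1% and 36.4%. With every cell thinned to 2000 counts before the selection they were 45.3% and 39.1%. Among Clec3b-type and scar matrix cells alone, with no thinning, the Clec3b-type share was 50.7% (49.0 to 52.4) in ENPP1CKO. In the control it was 45.8% (43.5 to 48.2).

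**Figure D2:**
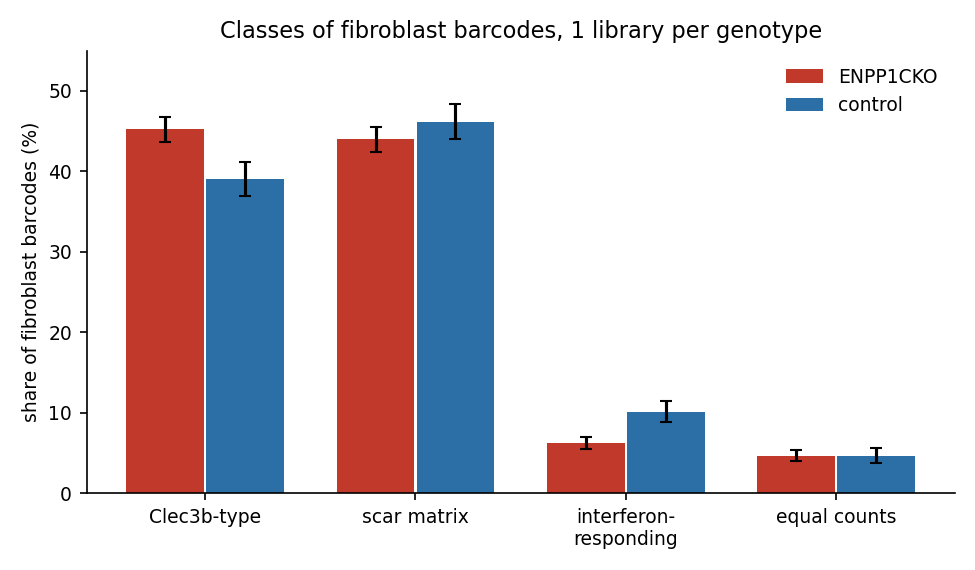
Bars give the share (%) of fibroblasts in each of 4 classes in the ENPP1CKO and control libraries, and error bars the exact binomial 95% interval, which covers counting error in 1 library per genotype. Clec3b-type cells were 45.2% in ENPP1CKO and 39.1% in the control.

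The genes of the rule behaved as the rule requires, so their levels are a description. In ENPP1CKO and control members, Fbln1 stood at 1446 and 1027 CPM, Htra3 at 897 and 635 CPM, Clec3b at 548 and 298 CPM, C3 at 376 and 412 CPM, Dpep1 at 257 and 147 CPM, Adamtsl2 at 182 and 161 CPM and Tnxb at 81.4 and 41.6 CPM. In scar matrix fibroblasts Clec3b was at 45.2 and 43.6 CPM and Fbln1 at 275 and 239 CPM. All but C3 were thus higher in ENPP1CKO members, and without the Saa3- and Clu-high cells C3 was 0.09 higher in ENPP1CKO on the log2 scale and Adamtsl2 0.10 lower in it. Fbln1 was the most widely detected, in 93.5% and 91.9% of members, and Clec3b itself was detected in only 50.9% and 42.6%. At an equal depth of 2000 counts Clec3b was detected in 43.4% and 31.2% of members, against 6.94% and 6.64% of scar matrix fibroblasts and 1.02% and 0.571% of macrophages, taken here as the background. Thinning left out 228 ENPP1CKO and 72 control members as too shallow.

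Many members lay close to the rule's limit. The median member held 12 counts of the Clec3b group in both libraries and 2 counts of the scar group, and 24.6% of members in each library had no count of the scar group. The margin was a single count in 144 ENPP1CKO members (8.27%) and 88 control members (11.0%). At that margin Clec3b stood at 74.6 and 98.0 CPM and Pi16, a peptidase-inhibitor-like marker of adventitial fibroblasts that the rule did not use, at 516 and 329 CPM. Scar matrix fibroblasts that leaned the other way by a single count had 96.9 and 74.7 CPM of Clec3b and 381 and 293 CPM of Pi16. The counting intervals on the 2 sides of the limit overlapped for Clec3b in both libraries and for Pi16 in the control, and for Pi16 in ENPP1CKO they did not (455 to 583 against 328 to 440).

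Against scar matrix fibroblasts, members were rich in complement, chemokine and resting fibroblast genes and poor in contractile and scar genes, in both libraries. The rule chose both classes in these cells, so the comparison is a description of the classes, without a test. Of 10363 genes with at least 50 counts in either class, 227 (2.19%) were at least 2-fold higher in members in both libraries and 125 (1.21%) at least 2-fold lower. Complement genes stood out by count, since 11 of 14 were at least 2-fold higher in both libraries. The rule itself uses C3, a complement gene, so this count is not independent of the selection. The list's median ratio over scar matrix fibroblasts was 1.60 in ENPP1CKO and 1.56 in the control. Without the Saa3- and Clu-high cells it was 1.33 and 1.52. C4b, a complement component of the classical pathway, was at 93.7 and 73.5 CPM in ENPP1CKO and control members and at 13.3 and 13.4 CPM in scar matrix fibroblasts. Serping1, the C1 inhibitor, was at 1713 and 1431 CPM in members and 726 and 617 CPM in scar matrix fibroblasts.

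Of all 10363 genes, 32.8% were higher in members in both libraries and 34.1% lower. Of 20 acute phase and innate response genes, 20 were higher in members of both libraries, 9 of them at least 2-fold, and of 28 chemokines and cytokines 17 were higher in both and 8 at least 2-fold. These counts include the Saa3- and Clu-high cells. The acute phase median over scar matrix fibroblasts was 0.99 in ENPP1CKO and 1.24 in the control, and 0.99 and 0.87 without those cells. Cxcl1, a neutrophil chemoattractant, was at 1181 and 1557 CPM in members and 266 and 470 CPM in scar matrix fibroblasts. Cxcl5, of the same family, was at 48.7 and 156 CPM against 3.00 and 7.90 CPM. Apoe, the lipid-carrying apolipoprotein, was at 4391 and 2458 CPM against 950 and 872 CPM. Of 24 resident cardiac fibroblast genes 19 were higher in both libraries and 8 at least 2-fold, and of 20 adventitial genes 15 and 8. Pi16 was at 958 and 553 CPM in members and 445 and 228 CPM in scar matrix fibroblasts, and Pdgfra at 143 and 127 CPM against 71.2 and 48.3 CPM. Dpp4, another adventitial marker, was near its floor at 2.05 and 1.20 CPM in members. Class I antigen presentation genes were higher in members of both libraries in 14 of 14, with H2-K1 at 451 and 522 CPM against 291 and 269 CPM.

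The 12 genes with the highest ratio over scar matrix fibroblasts, taking for each the smaller ratio of the 2 libraries, were Saa3, Dmkn, Nkain4, Cxcl5, Pvalb, Lgi2, Steap4, Lgals7, Clu, C4b, Ccl7 and Myoc. Part of this order rested on the Saa3- and Clu-high cells. Without them the control ratio of members over scar matrix fibroblasts went from 5.19 to -0.30 for Saa3, from 3.56 to -0.89 for Clu and from 3.48 to -0.20 for Lgals7. In ENPP1CKO these ratios without them were 1.20, 1.15 and 0.30. Ccl7, a monocyte chemoattractant, went from 2.27 to 0.50 in the control and from 2.91 to 2.64 in ENPP1CKO. Pvalb, Lgi2, Cxcl5, Steap4, Myoc and C4b kept ratios of at least 2.37 in both libraries. Dmkn and Nkain4, epithelial and membrane proteins, still had control ratios of 3.09 and 2.12.

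The genes with the lowest ratios included Col12a1, Thbs1, Rflnb, Ccn4, Tspan6, Tagln, Ddah1, Pamr1, H19, Ltbp2 and Fibin. Thbs1, thrombospondin-1, was at 168 and 231 CPM against 637 and 1086 CPM, and Tagln, the actin-binding transgelin, at 109 and 161 CPM against 318 and 592 CPM. Scar and activated fibroblast genes were lower in members in both libraries in 27 of 30, contractile genes in 14 of 18 and G2 and M phase genes in 33 of 41. Every one of these 11 genes kept its direction without the Saa3- and Clu-high cells, with ratios from -0.98 to -2.53.

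The members varied along the rule's own margin, so trends along it are a description. The 2447 members outside the Saa3- and Clu-high set were ranked within each library by their margin, the Clec3b group minus the scar group counts as a share of the cell's counts, and split into 3 equal parts. From the lowest to the highest of these, Pi16 went from 544 through 828 to 1708 CPM in ENPP1CKO and from 395 through 596 to 1161 CPM in the control. Pdgfra went from 94.9 to 192 CPM and from 74.0 to 184 CPM. Acta2, alpha-smooth muscle actin, went the other way, from 330.1 through 181 to 54.1 CPM in ENPP1CKO and from 870.2 through 288 to 128 CPM in the control. Cthrc1, a secreted marker of activated fibroblasts, went from 1965 to 645 CPM and from 2553 to 1019 CPM, and Postn from 4528 through 3553 to 2219 CPM in ENPP1CKO and from 3799 through 4095 to 1951 CPM in the control. Col1a1 hardly varied, between 3353 and 3777 CPM in ENPP1CKO and between 3833 and 3986 CPM in the control. The parts also differed in depth, with medians of 4215, 3547 and 3269 counts in ENPP1CKO and 5169, 4448 and 3562 in the control, and the share of depth in these orders was not tested.

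**Figure D3:**
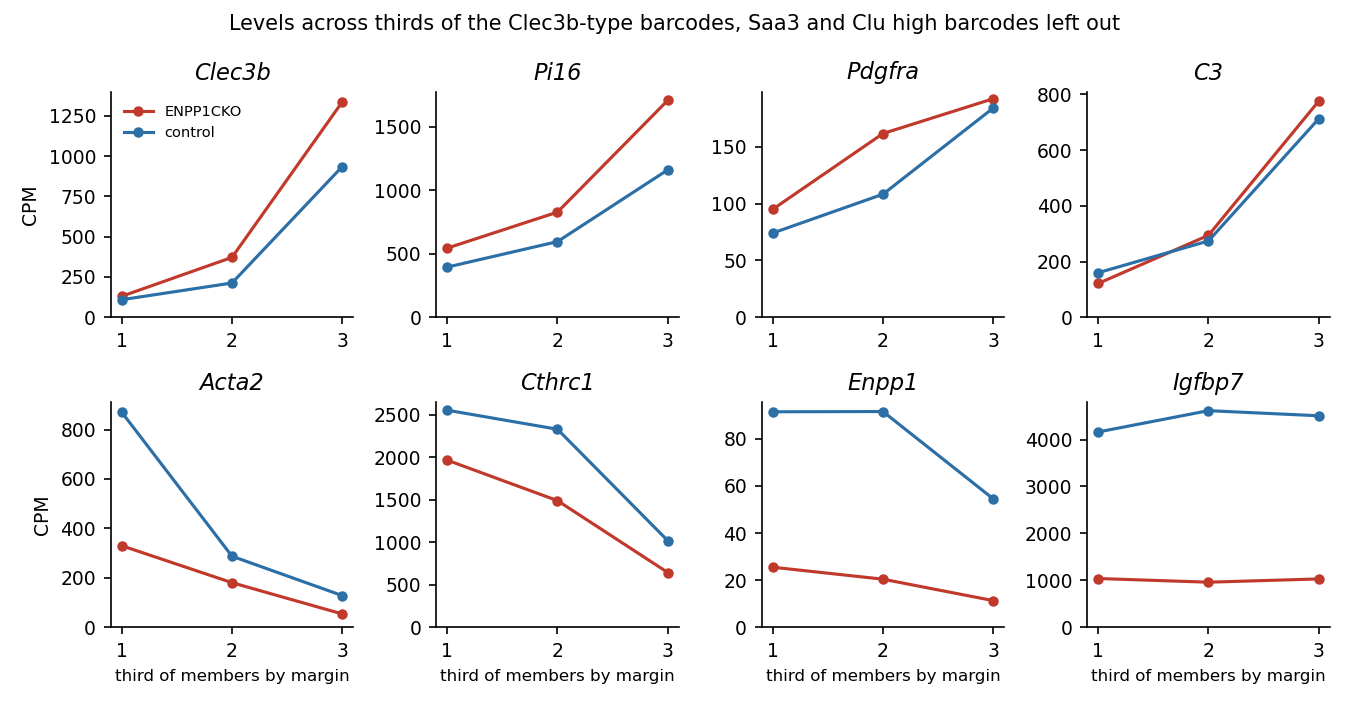
Each panel gives the level of 1 of 8 genes (CPM, linear axis from 0) in the 3 equal parts of Clec3b-type cells ranked by margin, from lowest (1) to highest (3), for ENPP1CKO and the control, each point being the summed counts of 577 cells (ENPP1CKO) or 238 to 239 cells (control). Clec3b and C3, used by the rule, and Pi16 and Pdgfra were highest and Acta2, Cthrc1 and Enpp1 lowest in the top part of both libraries, and Igfbp7 lay between 961 and 1040 CPM in the parts of ENPP1CKO and between 4162 and 4615 CPM in those of the control.

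Pi16, which the rule did not use, divided the same members further. At 2000 counts per cell it was detected in 848 of 1503 ENPP1CKO members (56.4%, exact interval 53.9 to 58.9) and 318 of 646 control members (49.2%, 45.3 to 53.2). Between cells with and without a Pi16 count, the highest ratios, taking for each gene the smaller ratio of the 2 libraries, were those of Ly6c1, Clec3b, Ly6a, Cd248, Igfbp6, Pcolce2 and Cd34, most of them known adventitial genes. Ly6c1 was at 151 CPM in cells with Pi16 and 51.9 CPM in cells without it in ENPP1CKO, and at 151 and 33.5 CPM in the control. Clec3b was at 797 and 302 CPM in ENPP1CKO and at 563 and 235 CPM in the control. The lowest ratios included Rgs5, a pericyte gene, at 15.9 and 99.2 CPM in ENPP1CKO and 26.7 and 152 CPM in the control, together with Wfdc18, Acta2, Ccl7, Tagln and Myl9. C3 was lower in Pi16-positive ENPP1CKO cells (374 against 432 CPM) and higher in Pi16-positive control cells (409 against 328 CPM), and Fbln1 was higher in Pi16-positive cells of both libraries (1634 against 1478 CPM and 1745 against 1073 CPM).

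Enpp1 itself was lower in ENPP1CKO members. It had 138 counts in 1742 members (20.2 CPM) against 309 counts in 802 control members (74.3 CPM), a log2 ratio of -1.88 (95% counting interval -2.18 to -1.59). It was detected in 6.89% of ENPP1CKO and 27.2% of control members, and at 2000 counts per cell in 3.63% and 14.4%, with 2.22% and 3.23% in macrophages. Scar matrix fibroblasts held more Enpp1 in both libraries, 36.0 and 162 CPM, with a ratio of -2.17. Within the members it was lowest in the part with the highest margin, at 11.3 CPM in ENPP1CKO and 54.5 CPM in the control. Which exons were floxed is not given in the sources used here, so counts from outside the deleted part would not report the deletion. Under the alternatives that were run the Enpp1 ratio lay between -2.08 and -1.86.

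Contractile genes were lower in ENPP1CKO members. Of 16 tested genes of the list 15 were lower, 14 of them with a counting interval below 0, against 52.1% and 15.6% of all genes tested, and the list's median ratio was -0.55 beside -0.02 over all 9704 genes tested. Acta2 had 1393 counts (204 CPM) in ENPP1CKO members against 2177 counts (523 CPM) in control members, a ratio of -1.36 (-1.46 to -1.26). Tagln was at 109 and 161 CPM, Cnn2, the actin-binding calponin-2, at 74.8 and 109 CPM, and Tpm2, a tropomyosin, at 164 and 248 CPM. Of the 16, 3 were at least 2-fold lower, against 2.46% of all genes tested. Beside Acta2 these were Actg2 and Des, at 4.24 and 15.4 CPM and at 10.8 and 24.0 CPM. Without the Saa3- and Clu-high cells 14 of 16 were lower, against 51.4% of all genes, with a median of -0.41, and Acta2 was at 203 and 486 CPM (ratio -1.26). Acta2 sat in a minority of cells, detected in 22.3% of ENPP1CKO and 46.0% of control members, and 1 cell held 12.8% of its ENPP1CKO counts. With cells that had 5 or more counts of 5 other marker lists (endothelial, erythroid, pericyte or smooth muscle, cardiomyocyte and neutrophil) left out, the ratio of Acta2 was -1.63. The size of the difference rested in part on members that carried macrophage transcripts, which were 55 of 1742 in ENPP1CKO (3.16%) and 197 of 802 in the control (24.6%) at 5 or more counts of 10 macrophage markers. With these left out the Acta2 ratio was -0.80, which is under 2-fold, and the median of the contractile list was -0.24. The part of depth or of the margin in this shift was not tested. The control members were the deeper ones and had the smaller margins. Scar matrix fibroblasts showed the same direction, with Acta2 at 386 and 1532 CPM and 17 of 18 genes of the list lower, against 48% of all genes tested in that class.

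Among genes that differed by at least 2-fold, more were higher in the control, and most of that excess was not seen without the Saa3- and Clu-high cells. Over all genes tested 4650 were higher and 5054 lower in ENPP1CKO, and 4590 and 4852 without those cells. Of 9704 genes with at least 50 counts in members of both libraries together, 102 (1.05%) were at least 2-fold higher in ENPP1CKO and 239 (2.46%) at least 2-fold lower. With the Saa3- and Clu-high cells left out 9442 genes reached 50 counts, of which 80 (0.847%) were at least 2-fold higher and 103 (1.09%) at least 2-fold lower. Of the 239, 162 were still tested and 75 were still at least 2-fold lower. Leaving out the members with 5 or more macrophage counts in place of the Saa3- and Clu-high cells gave 95 genes higher and 91 lower.

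**Figure D4:**
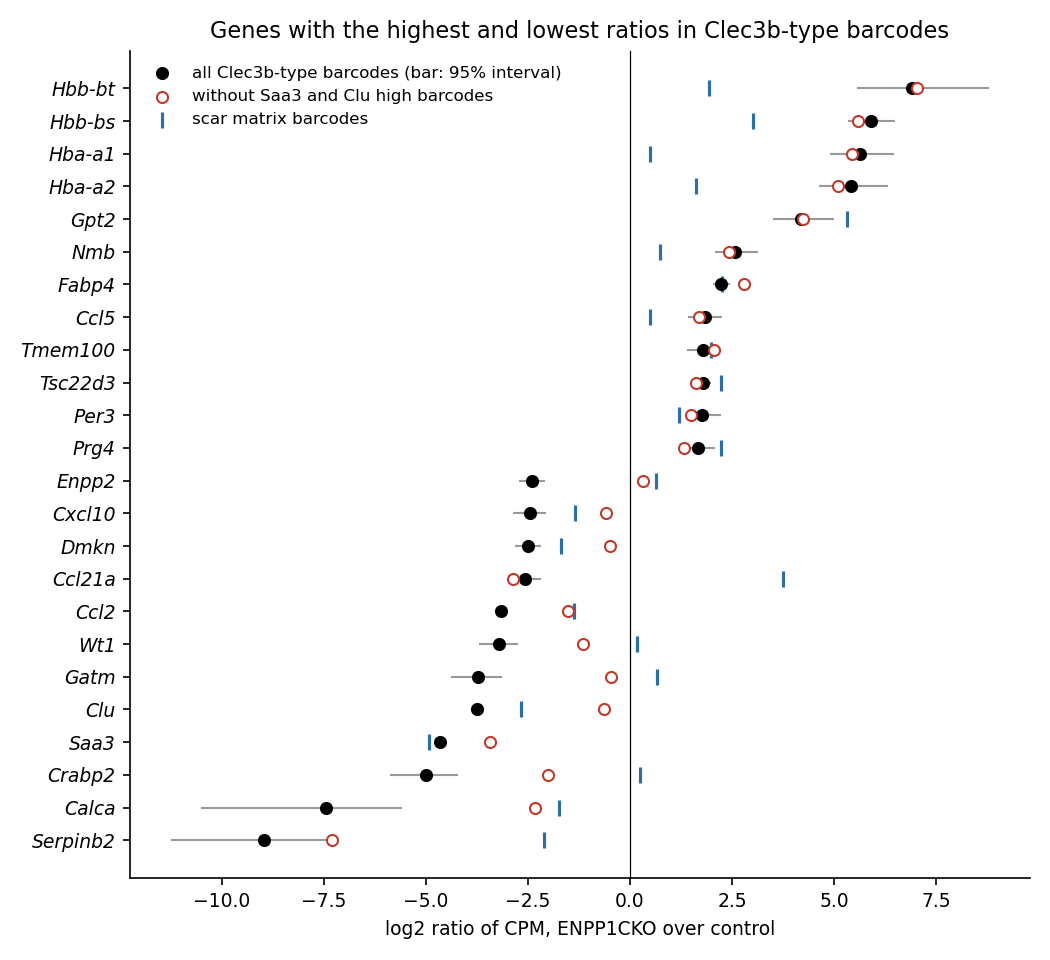
Log2 ratio of CPM, ENPP1CKO over control, for the 12 highest and 12 lowest genes in Clec3b-type cells (filled points, with 95% counting intervals), the same without Saa3- and Clu-high cells (open points) and in scar matrix fibroblasts (ticks). For Clu, Dmkn, Enpp2 and Cxcl10 the open point lies at -0.63 or above, and for Saa3, Serpinb2 and Ccl21a it stays below -2, while the open points of Calca, Gatm, Crabp2 and Wt1 rest on 7, 27, 36 and 42 counts in both libraries together, under the minimum of 50.

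The lowest 12 genes were Serpinb2, Calca, Crabp2, Saa3, Clu, Gatm, Wt1, Ccl2, Ccl21a, Dmkn, Cxcl10 and Enpp2. Saa3 had 507 counts in 23 ENPP1CKO members (74.1 CPM) and 7811 counts in 184 control members (1877 CPM), a ratio of -4.66. Clu was at 68.7 and 925 CPM, Ccl2, the monocyte chemoattractant, at 56.7 and 506 CPM, and Wt1 at 6.43 and 59.4 CPM. Without the Saa3- and Clu-high cells Clu was at 27.4 and 42.2 CPM (ratio -0.63, -0.95 to -0.30), Ccl2 at 30.9 and 89.2 CPM (-1.53) and Wt1 at 2.96 and 6.59 CPM, a level of 42 counts in all that is under the minimum for a ratio. Enpp2, the lysophospholipase autotaxin, went from 16.1 and 84.8 CPM to 15.2 and 12.3 CPM, so that its ratio turned from -2.40 to 0.31 (-0.22 to 0.87). Saa3 stayed lower at 3.85 and 41.6 CPM, and it was also at 1.68 and 51.4 CPM in scar matrix fibroblasts and at 21.5 and 814 CPM in macrophages. The part of Saa3 RNA from other cells in these values was not tested.

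Single cells carried some of the named genes. Ccl21a, a chemokine of lymphatic vessels, had 62 counts in 14 ENPP1CKO and 226 counts in 16 control members, with 79.0% and 37.6% of its counts in 1 cell. Serpinb2, a plasminogen activator inhibitor, had 3 counts in 1 ENPP1CKO member and 914 counts in 30 control members (ratio -8.97, -11.25 to -7.42). The 4 globin genes led the genes higher in ENPP1CKO, with Hbb-bs at 387 and 6.49 CPM and Hba-a1 at 179 and 3.60 CPM. A single ENPP1CKO cell held 96.9% of the Hbb-bt, 89.9% of the Hbb-bs, 92.9% of the Hba-a1 and 92.4% of the Hba-a2 counts, so these ratios describe that cell.

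The other genes among the 12 highest were Gpt2, Nmb, Fabp4, Ccl5, Tmem100, Tsc22d3, Per3 and Prg4. Gpt2, the mitochondrial alanine transaminase, had 513 counts in 395 ENPP1CKO members (75.0 CPM) and 17 counts in 16 control members (4.09 CPM), a ratio of 4.20 (3.50 to 4.99). It was spread over many cells, and was at 88.8 and 2.23 CPM in scar matrix fibroblasts and 9.80 and 4.77 CPM in macrophages. Nmb, the peptide neuromedin B, was at 49.0 and 8.17 CPM in members and at 6.60 and 3.95 CPM in scar matrix fibroblasts. Tmem100, a membrane protein of the BMP pathway, was at 49.8 and 14.4 CPM in members. Tsc22d3, the glucocorticoid-induced leucine zipper, was at 184 and 53.6 CPM (ratio 1.78, 1.58 to 2.00), at 285 and 60.8 CPM in scar matrix fibroblasts and at 278 and 132 CPM in macrophages. Fabp4, a fatty acid-binding protein of endothelial cells and macrophages, was at 241 and 51.2 CPM in members and at 231 and 74.2 CPM in macrophages, so it was higher in cells of another kind too. Ccl5 was higher at 50.4 and 14.2 CPM, but 42.0% of its ENPP1CKO counts lay in 1 cell and its ratio turned to -0.53 when members needed a collagen share of 2%.

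A further set of genes was lower in ENPP1CKO whether or not the Saa3- and Clu-high cells were counted. A second ranking without those cells, added after seeing the data, gave Serpinb2, Ccl21a, Igfbp7, Enpp1, Prrx2, Jund, Klf2, Cpxm2, Ccl9, Ccl2, Nsmce4a and Taf10 as its lowest 12. Igfbp7, a secreted IGF- and activin-binding protein, had 1012 CPM in ENPP1CKO members against 4399 CPM in control members (ratio -2.12, -2.16 to -2.08), with counts in 1618 of 1742 and 786 of 802 members overall. Prrx2, a mesenchymal homeobox gene, was at 11.8 and 47.0 CPM, and Cpxm2, a secreted carboxypeptidase-like protein, at 23.5 and 73.1 CPM. In scar matrix fibroblasts Igfbp7 was at 1219 and 3676 CPM and Prrx2 at 11.5 and 54.8 CPM. Jund and Klf2, transcription factors, were at 316 and 1102 CPM and at 425 and 1347 CPM. Jund, Klf2, Taf10 and Nsmce4a were also lower in ENPP1CKO macrophages, with ratios of -1.51, -1.41, -1.54 and -1.22 there, so for these genes the difference between libraries was not limited to fibroblasts. Immediate early and dissociation stress genes were lower in 22 of 29 tested in members, 15 with a counting interval below 0, against 52.1% and 15.6% of all genes, at a median of -0.15 (-0.09 without the Saa3- and Clu-high cells), and their median was 0.03 in scar matrix fibroblasts and 0.24 in macrophages. Mitochondrially encoded genes were higher in 10 of 13, against 47.9% of all genes, at a median of 0.16, with medians of -0.03 in scar matrix fibroblasts and 0.47 in macrophages, and mitochondrial counts were a median of 2.78% of a member's counts in ENPP1CKO and 2.47% in the control. The part of handling or RNA quality in the gene differences was not tested. Among the highest 12 of this ranking, Igfbp3, another IGF-binding protein, was at 34.3 and 11.4 CPM (1.59, 1.09 to 2.13), and at 4.08 and 8.59 CPM in scar matrix fibroblasts.

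Resting fibroblast genes were mostly higher in ENPP1CKO members. The summed levels of the adventitial and resident lists also rose along the rule's margin in both libraries. Margins were larger in ENPP1CKO members, and their part in these ratios was not tested. Of 20 adventitial genes tested 19 were higher, 13 with a counting interval above 0, against 47.9% and 11.4% of all genes tested, at a median ratio of 0.37, and only Scara5, a scavenger receptor, reached 2-fold at 19.1 and 8.41 CPM. Pi16 was at 958 and 553 CPM (0.79), Mfap5, a microfibril protein, at 3481 and 2036 CPM (0.77), and Sema3c, a secreted semaphorin, at 39.9 and 20.9 CPM (0.93). Of 24 resident cardiac fibroblast genes 22 were higher at a median of 0.37, with the chemokine Cxcl14 at 78.5 and 27.6 CPM (1.51) and Abca8a, a lipid transporter, at 92.1 and 48.1 CPM (0.94). Tcf21, the transcription factor that marks cardiac fibroblasts, was at 16.2 and 15.1 CPM. Leaving out the Saa3- and Clu-high cells gave medians of 0.27 and 0.21, and 19 of 20 and 19 of 24 were higher, against 48.6% of all genes. With the members with 5 or more macrophage counts left out in their place the medians were 0.32 and 0.21. In scar matrix fibroblasts the medians were 0.35 and 0.47. In macrophages, where 13 genes of each list were tested, they were 0.42 and 0.16.

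**Figure D5:**
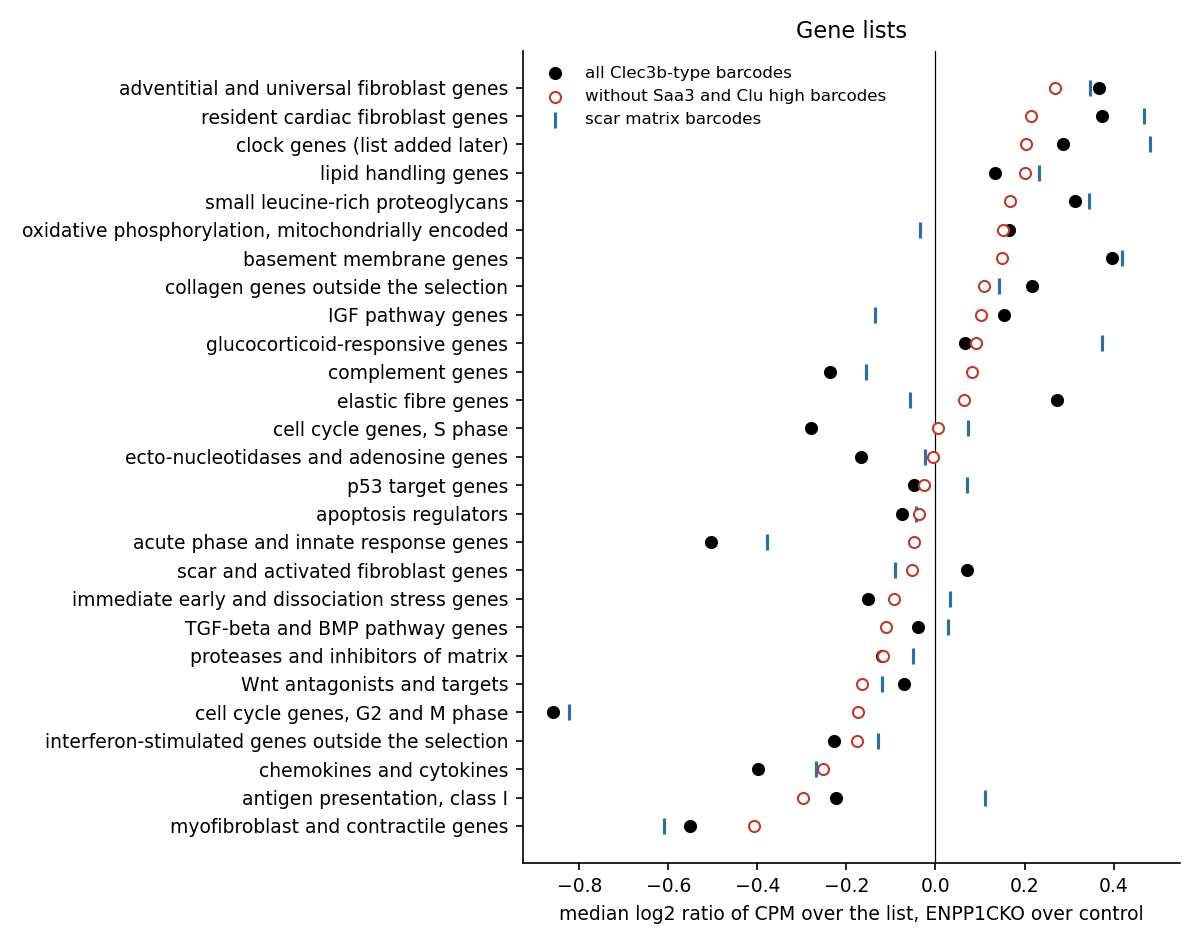
Median log2 ratio of CPM, ENPP1CKO over control, over the tested genes of each list in all Clec3b-type cells (filled), without Saa3- and Clu-high cells (open) and in scar matrix fibroblasts (ticks). The contractile list lay at -0.55, -0.41 and -0.61 and the adventitial list at 0.37, 0.27 and 0.35, while the acute phase list went from -0.50 to -0.05 without the Saa3- and Clu-high cells.

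Structural matrix lists outside the rule leaned towards ENPP1CKO, and matrix proteases and their inhibitors went both ways. Of all genes tested 47.9% were higher in ENPP1CKO, and 48.6% without the Saa3- and Clu-high cells. Basement membrane genes were higher in 16 of 18, at a median of 0.40, with Sparcl1 at 357 and 171 CPM (1.06), Col15a1 at 322 and 178 CPM (0.85) and the laminin chain Lama2 at 181 and 111 CPM (0.71). Elastic fibre genes were higher in 15 of 20 at a median of 0.27, with Eln, elastin, at 3023 and 2005 CPM (0.59) and Fbn2, fibrillin-2, at 64.7 and 25.2 CPM (1.36). Without those cells 13 of 18 and 12 of 20 were higher at medians of 0.15 and 0.06, so most of the elastic fibre difference moved with those cells. In scar matrix fibroblasts Eln was the other way round, at 954 and 1323 CPM. Of the collagens outside the rule 15 of 21 were higher, at a median of 0.22, and 13 of 20 at 0.11 without those cells. Of 27 proteases and inhibitors of matrix 16 were lower, 12 with a counting interval below 0 (52.1% and 15.6% of all genes), at a median of -0.12. Another 6 had an interval above 0 (11.4% of all genes). Without those cells 19 of 27 were lower at -0.12, with 12 intervals below 0 and 4 above it. Timp2, a metalloproteinase inhibitor, was at 440 and 743 CPM (-0.75) and Plat, tissue plasminogen activator, at 82.6 and 145 CPM (-0.82), while the gelatinase Mmp2 was at 559 and 385 CPM (0.54). Scar and activated fibroblast genes were split, 14 higher and 13 lower. Among the rule's own collagens Col1a1 was at 3575 and 3555 CPM in members and at 4860 and 7071 CPM in scar matrix fibroblasts.

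Secreted Wnt antagonists and IGF genes differed gene by gene. Sfrp1, a Wnt antagonist, was at 719 and 1271 CPM (-0.82), Ccn5 at 874 and 1327 CPM (-0.60) and Frzb at 335 and 419 CPM (-0.33), and without the Saa3- and Clu-high cells these ratios were -1.08, -0.89 and -0.60. The Wnt list had 9 of 15 genes lower at a median of -0.07, and 9 of 13 at -0.17 without those cells, beside 52.1% and 51.4% of all genes. Igf1, the growth factor, was at 419 and 250.2 CPM (0.74) and Igfbp5, one of its binding proteins, at 45.6 and 104 CPM (-1.19). Of 24 lipid handling genes 17 were higher, against 47.9% of all genes, at a median of 0.13 (0.20 without the Saa3- and Clu-high cells), among them Apoe (0.84), which was at 950 and 872 CPM in scar matrix fibroblasts.

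Inflammatory and immune lists were mostly lower in ENPP1CKO, and their counts stand beside 52.1% of all genes tested that were lower and 2.46% at least 2-fold lower, or 51.4% and 1.09% without the Saa3- and Clu-high cells. The acute phase and complement medians moved to near 0 without the Saa3- and Clu-high cells, the chemokine median moved less, and the interferon and class I medians kept most or all of their size. Acute phase genes were lower in 16 of 20 at a median of -0.50, and in 12 of 19 at -0.05 without those cells. Chemokines and cytokines were lower in 18 of 27 at a median of -0.40, and in 19 of 27 at -0.25 without them. Cxcl5 was at 48.7 and 156 CPM with them and at 49.3 and 79.6 CPM without them, and Cxcl1 at 1172 and 1471 CPM without them. Interferon-stimulated genes outside the rule were lower in 26 of 30 at a median of -0.23, with 4 genes at least 2-fold lower and Ifitm3 at 1638 and 2060 CPM. The rule set aside the interferon-responding cells, 6.20% of fibroblasts in ENPP1CKO and 10.1% in the control, so this count is not independent of the selection. In the cells set aside the list summed to 11340.5 and 9443 CPM, higher in ENPP1CKO. Without the Saa3- and Clu-high cells 24 of 29 were lower at -0.18, and 1 gene was at least 2-fold lower. Class I antigen presentation genes were lower in 12 of 14 at -0.22 and in 13 of 14 at -0.30 without those cells, and 10 of 14 were higher in scar matrix fibroblasts. Complement genes, which marked the members, leaned neither way by count, lower in 8 of 14 at -0.24 and higher in 7 of 12 at 0.08 without the Saa3- and Clu-high cells.

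Cell cycle genes of the G2 and M phases were low in members and lower still in ENPP1CKO, by an amount that depended on which members were counted. Of 29 tested genes 25 were lower and 14 at least 2-fold lower, against 52.1% and 2.46% of all genes, at a median of -0.86, with Cenpa, a centromere histone, at 7.89 and 36.0 CPM and Cks2, a cyclin kinase subunit, at 16.7 and 43.0 CPM. Without the Saa3- and Clu-high cells 22 genes reached 50 counts, 15 were lower and 6 at least 2-fold lower (51.4% and 1.09% of all genes), and the median was -0.17, while Cenpa was still at 7.99 and 30.5 CPM. Without the members with 5 or more macrophage counts the G2 and M phase median was -0.07. In scar matrix fibroblasts 34 of 41 of these genes were lower at a median of -0.82, against 48% of all genes tested in that class. S phase genes had a median of -0.28 in members, and of 0.00 without the Saa3- and Clu-high cells. Apoptosis regulators (median -0.07, 33 genes) and p53 target genes (-0.05, 21 genes) had medians near the -0.02 of all genes. Among apoptosis regulators 21 were lower, 11 of them with a counting interval below 0 and 3 at least 2-fold, against 52.1%, 15.6% and 2.46% of all genes tested. Another 5 had an interval above 0, against 11.4% of all genes, and 0 genes of either list were at least 2-fold higher. Without the Saa3- and Clu-high cells 18 of 32 apoptosis regulators were lower and 2 at least 2-fold lower, against 51.4% and 1.09% of all genes.

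Clock genes were added as a list after Per3 had appeared among the highest genes. Of 14 tested, 11 were higher in ENPP1CKO, at a median of 0.29, and 10 of 14 were higher at 0.20 without the Saa3- and Clu-high cells, beside 47.9% and 48.6% of all genes. Per3 was at 41.8 and 12.3 CPM, Dbp, a clock-controlled transcription factor, at 32.2 and 10.8 CPM and Bhlhe41, a repressor in the clock, at 35.4 and 14.2 CPM. Arntl, the core activator also called Bmal1, was at 32.9 and 29.6 CPM, and Bhlhe40 was lower at 87.7 and 109 CPM. The list was also higher in other cells. In scar matrix fibroblasts 12 of 15 genes were higher and 3 lower, at a median of 0.48, where 48% of all genes tested were lower. In macrophages the median was 0.26 over 13 genes. In scar matrix fibroblasts Per3 was at 48.8 and 21.3 CPM and Dbp at 57.8 and 25.3 CPM, and in macrophages Per3 was at 9.80 and 6.81 CPM. Of 22 glucocorticoid-responsive genes 14 were higher in members at a median of 0.07, so in members Tsc22d3 did not stand for its list. Of the 22, 9 had a counting interval above 0 and 6 below it, against 11.4% and 15.6% of all genes. In scar matrix fibroblasts 15 of 20 genes of this list were higher and 5 lower, at a median of 0.37. In macrophages its median was 0.30 over 21 genes.

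Markers of other cell types moved with genotype beside these results, and their counts stand beside 47.9% of all genes higher and 52.1% lower. The 10 macrophage markers summed to 506 CPM in ENPP1CKO members and 787 CPM in control members, against 41956 and 45688 CPM in macrophages, and 7 of 9 tested were lower in ENPP1CKO. Members with 5 or more of these counts were 50 of 1731 in ENPP1CKO and 138 of 716 in the control outside the Saa3- and Clu-high set, 5 of 11 and 59 of 86 inside it, and 76 of 1694 and 298 of 948 scar matrix fibroblasts had as many. By Tyrobp, Fcer1g, Laptm5 and Csf1r, the members' counts held as much of these genes as an admixture of 1.21% and 2.09% macrophage RNA would give. Endothelial markers summed to 293 and 81.9 CPM, most of it Fabp4, and 6 of 6 tested were higher in ENPP1CKO. Pericyte and smooth muscle markers summed to 85.5 and 148 CPM, and 16 ENPP1CKO and 14 control members had 5 or more of their counts. Cardiomyocyte markers summed to 49.1 and 11.5 CPM, erythroid markers to 819 and 15.6 CPM and neutrophil markers to 8.62 and 33.2 CPM. The B cell list (65.5 and 19.7 CPM) was almost all Igkc, with 3 of 6 genes at 0 in ENPP1CKO and 2 of 6 in the control, and the T and NK cell list summed to 14.8 and 4.33 CPM and the Schwann cell list to 19.9 and 19.0 CPM. Without the members with 5 or more macrophage counts the list medians of ENPP1CKO over control were 0.32 for adventitial, 0.21 for resident fibroblast, 0.18 for basement membrane and 0.07 for elastic fibre genes. They were -0.16 for acute phase, -0.25 for chemokine, -0.22 for interferon-stimulated, -0.23 for class I and -0.07 for G2 and M phase genes, and 0.08 for complement genes. The contractile, elastic fibre, basement membrane, resident fibroblast, acute phase, chemokine and cell cycle medians were thus nearer 0 without these cells. The complement median changed sign, and the adventitial, interferon-stimulated and class I medians moved little. The part of these cell types in the gene differences was not tested, apart from leaving out the cells with such counts.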

How the data were processed

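The deposited count tables of 2 single-cell libraries were used. Per the submitters' processing notes the tools were Cell Ranger and STAR 2.5.3a, and mm10 is the mouse build named. The deposited values are whole-number counts per gene and cell, with 31053 gene identifiers, of which 30934 had a symbol. Bulk libraries of the series were not used, and 0 sample columns of the tables used were left out. The members and gene lists were chosen with earlier results of these data known. Counts were summed per class and library and scaled to CPM. Genes needed 50 counts in both libraries together, and a count of 0 was set to 3 counts in ratios. Intervals were conditional exact binomial for ratios and Clopper-Pearson for shares, at 95%. Named genes were those of the rule, Enpp1, Acta2, Tagln and Cnn2, the 12 highest and lowest ratios among genes with 200 counts (no Gm or Rik models, ribosomal protein, mitochondrial or immunoglobulin genes), and in each list the largest ratios and levels. Genes outside this rule (Scara5, Actg2, Des, Pdgfra, Cthrc1, Tcf21, Dpp4, and those of the Pi16 split and of the Saa3- and Clu-high cells) were chosen after their values were seen, and 2 genes the rule named are not reported here. Doublets were called with Scrublet in scanpy 1.11.5 (Python 3.11.15). The ratio calculation was tested on simulated data. Alternatives changed the quality limits, depth, selection, filters, centring and weighting, and left out subsets of members.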

Additional observations from a re-analysis of the deposited data

Results flagged for a closer look

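For several genes of this report the ratio of ENPP1CKO over control had one sign in Clec3b-type cells and the other in scar matrix fibroblasts. The 6 described here had both counting intervals clear of 0. By the levels given above, Eln and H2-K1 also had opposite signs, and they are not among the 6. The difference itself was not tested, since each genotype was 1 library. In Clec3b-type cells the ratio was 1.43 for Igfbp3, 0.28 for C1qtnf3, 0.18 for Adamtsl2 and 0.15 for Col1a2, and in scar matrix fibroblasts it was -1.07, -0.23, -0.55 and -0.23. It was -2.58 for Ccl21a and -2.40 for Enpp2, against 3.75 and 0.65. Adamtsl2, C1qtnf3 and Col1a2 belong to the selection, which sorted cells by their counts. Without the Saa3- and Clu-high cells the ratio in Clec3b-type cells was 1.59 for Igfbp3, -2.86 for Ccl21a and 0.07 for Col1a2. It was 0.31 for Enpp2, -0.10 for Adamtsl2 and 0.05 for C1qtnf3, with intervals that spanned 0, so for these 3 genes opposite signs with both intervals clear of 0 were not seen without those cells. A single cell held 79.0% of the Ccl21a counts of ENPP1CKO members.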

How the results depend on the processing

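No paired analysis was possible because each genotype was sequenced as 1 library, and leaving out a replicate was not possible for the same reason. Enpp1 and Acta2 were lower in ENPP1CKO, and the Clec3b-type share higher, under every alternative run. Leaving out members with macrophage counts was no check of the share, for the reason given below. A margin of at least 3 counts gave shares of 38.8% in ENPP1CKO and 31.5% in the control, a collagen share of 2% gave 46.9% and 37.3%, and leaving C3 out of the selection gave 44.1% and 36.1%. Leaving out Saa3- and Clu-high cells gave 45.1% and 36.4%, and leaving out cells with 2 or more epicardial counts 45.0% and 36.9%. Leaving out members with 5 or more macrophage counts gave 44.4% and 32.6% with the other classes kept whole. That removed 55 of 1742 ENPP1CKO and 197 of 802 control members, so the control share had to fall more. The 76 of 1694 ENPP1CKO and 298 of 948 control scar matrix fibroblasts with as many such counts were kept. These alternatives were all chosen after seeing the data, as was leaving out cells with counts of 5 other marker lists. The count of genes at least 2-fold lower, 239 as reported, was 82 after thinning, 114 with a collagen share of 2%, 103 without Saa3- and Clu-high cells, 118 without cells with epicardial counts and 91 without members with macrophage counts. With a filter of 200 counts 26 genes were higher and 82 lower, and with 10 counts 430 and 744, since the filters change how many genes are tested. The Acta2 ratio was -1.13 after thinning, -1.48 with the margin of 3, -1.48 with the collagen share of 2%, -1.21 as a mean over cells, -1.26 without Saa3- and Clu-high cells, -1.63 without cells with counts of 5 other marker lists and -0.80 without members with macrophage counts. With the collagen share of 2% Ccl5 turned to -0.53 and the ENPP1CKO ratio of Lgals7 over scar matrix fibroblasts to -0.22, and without cells with epicardial counts the latter was -1.94. Without Saa3- and Clu-high cells Enpp2 turned to 0.31, and the control ratios over scar matrix fibroblasts to -0.30 for Saa3, -0.20 for Lgals7 and -0.89 for Clu. The cause of these shifts was not tested beyond the cells each alternative removes. The median ratio of scar and activated fibroblast genes, 0.07 as reported, changed sign under several alternatives, thinning among them, and is given no direction. A gene at 3 counts in the control members stands at 0.721 CPM, which limits what the smaller library can show.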
